A study of Mus musculus with 8 samples.

Results

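SCA1, the product of *Ly6a*, is one of the surface proteins by which mouse interfollicular epidermal cells are told from hair follicle cells, and it belongs to the Ly6/uPAR family. The 6 genes described here are *Ly6a*, *Ly6d*, *Ly6e*, *Ly6g6c*, *Ly6g6e* and *Lypd3*, chosen by symbol from a list of 48 genes of that family. All 6 had a row in the bulk tables and in the single-cell plates. Of the family list, these 6 included, 17 genes had a row in the bulk tables and 23 in the plates.

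All mice carried the *Troy*-EGFP-IRES-CreERT2 allele, in which EGFP and a tamoxifen-dependent Cre replace the coding region of *Troy* (*Tnfrsf19*), so that EGFP reports the activity of the *Troy* locus and the sorted bulk populations rest on this reporter and on ITGA6, an integrin of basal cells. Epidermal cells came from telogen back skin of adult C57BL/6 mice between 7 and 9 weeks old. Bulk mRNA was sequenced from viable DAPI- cells, ITGA6bright EGFP+ cells and ITGA6bright EGFP- cells of 2 replicates, taken here as 2 mice, with 1 library per population and mouse. Single cells were sorted into 384-well plates from 4 *Troy*-EGFP mice, for which no treatment is given, and from 2 male mice that were double homozygous for the knockin and for Rosa26-LSL-tdTomato, so that neither copy of *Troy* kept its coding region. These last mice, called traced here, received 1 intraperitoneal dose of 5 mg tamoxifen and were sampled after 7 days, which labels cells in which the *Troy* locus was active and their progeny. The names of *Troy*-EGFP plates 1 and 2 carry an M, and those of plates 3 and 4 an F. Gates of single wells were not used.

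The bulk libraries held 157537 to 453005 counts. *Tnfrsf19* was at 41 and 16 counts in the EGFP+ libraries and at 3 and 6 in the EGFP- libraries. The plates held 236806 to 1064649 transcripts, and 71, 129, 218 and 262 wells of *Troy*-EGFP plates 1 to 4 and 229 and 200 wells of the traced plates passed the minimum of 1000 transcripts. All plates used the same 384 well barcodes, and 0 kept wells had the profile of another well. Plate 1 was the shallowest, with a median of 1676 transcripts per kept well against 2232 to 3267 in the others, and 44 of its 71 kept wells fell into clusters led by *Mir1950* or *Lipi* that were removed, as were 100 of 680 wells over the 4 plates. The remaining wells were clustered without any Ly6/uPAR gene and named from marker lists. They gave 159 IFE I-like wells (basal interfollicular, *Krt14* and *Krt5* list), 115 IFE II-like wells (committed, *Krt1* and *Krt10* list), 153 lower HF-like wells (lower hair follicle, *Cd34* and *Postn* list) and 71 upper HF-like wells (upper hair follicle, *Krt79* and *Cst6* list), beside 43 T cell-like and 39 Langerhans cell-like wells. In the *Troy*-EGFP sums the summed level of each list was higher in every sum of its own class than in any sum of the other 3 classes. Since the clusters were named by these same lists, this is no separate evidence for the names. For the IFE I list the margin was narrow, with a lowest IFE I-like sum of 29401 CPM and a highest lower HF-like sum of 27825 CPM. Traced wells took their names by transfer from the *Troy*-EGFP wells, which gave 146, 50, 106 and 99 wells of the same 4 classes and 28 T cell-like wells.

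Ly6/uPAR proteins share a small extracellular domain folded by disulfide bonds between conserved cysteines, and most of them are held at the cell surface by a glycosylphosphatidylinositol anchor. SCA1 is known as a marker of stem and progenitor cells in many mouse tissues. In skin it is used to sort cells of the interfollicular epidermis and infundibulum away from those of the bulge, while LYPD3 (C4.4A) is known from the suprabasal layers of stratified epithelia.

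In the GRCm38 annotation (GENCODE vM21), *Ly6d* (chr15:74762056-74763620, minus strand), *Ly6e* (chr15:74955051-74959905, plus strand) and *Ly6a* (chr15:74994877-74998031, minus strand) lay on chromosome 15, which held 21 genes of the family list. *Ly6e* and *Ly6a* were 35 kb apart. *Ly6g6c* (chr17:35065388-35070050, plus strand) and *Ly6g6e* (chr17:35076902-35078804, plus strand) were 6.85 kb apart in the major histocompatibility complex, and *Lypd3* stood at chr7:24636550-24641118 on the plus strand.

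Stretches of the coding sequences of 3 members with different patterns over the classes are shown because they carry what the family shares. They hold codons 21 to 120 of the transcripts with a consensus coding sequence (CCDS) in GRCm38, 5′ to 3′, with introns left out of the span given, and the capitals mark the cysteine codons.
Ly6a, chr15:74995307-74997544, minus strand: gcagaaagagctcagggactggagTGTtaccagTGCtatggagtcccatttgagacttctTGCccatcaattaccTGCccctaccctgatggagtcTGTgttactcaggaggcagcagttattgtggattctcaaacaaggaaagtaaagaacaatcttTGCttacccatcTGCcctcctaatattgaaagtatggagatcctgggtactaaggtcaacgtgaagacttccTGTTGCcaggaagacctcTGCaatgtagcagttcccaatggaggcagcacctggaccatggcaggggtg
Ly6e, chr15:74957868-74958662, plus strand: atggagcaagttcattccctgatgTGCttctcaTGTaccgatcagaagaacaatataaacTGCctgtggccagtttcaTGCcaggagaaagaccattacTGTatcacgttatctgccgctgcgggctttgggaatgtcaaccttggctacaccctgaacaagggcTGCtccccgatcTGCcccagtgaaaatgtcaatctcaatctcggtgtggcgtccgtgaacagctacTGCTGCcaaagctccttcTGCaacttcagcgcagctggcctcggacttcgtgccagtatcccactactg
Ly6g6c, chr17:35068872-35069513, plus strand: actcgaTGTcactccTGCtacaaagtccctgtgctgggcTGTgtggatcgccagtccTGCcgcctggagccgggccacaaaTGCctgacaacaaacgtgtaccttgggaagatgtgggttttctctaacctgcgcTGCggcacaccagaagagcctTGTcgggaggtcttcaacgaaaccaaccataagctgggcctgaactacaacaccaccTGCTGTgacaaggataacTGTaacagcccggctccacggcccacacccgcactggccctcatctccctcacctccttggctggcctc

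Each stretch held 10 cysteine codons. Over the whole coding sequence *Ly6a*, *Ly6e* and *Ly6g6c* held 12, 10 and 11 cysteine codons, and *Ly6d*, *Ly6g6e* and *Lypd3* held 11, 10 and 19, with 363 codons in *Lypd3* against at most 136 in the others. Each of the 6 held exactly 1 block of a cysteine pair followed, after 4 codons, by a cysteine and an asparagine. It began at codon 98 in *Ly6a* and *Ly6e* (TGTTGCcaggaagacctcTGCaat in *Ly6a*), at codon 92 in *Ly6g6c*, at codon 86 in *Ly6d*, at codon 97 in *Ly6g6e* and at codon 217 in *Lypd3*, which is longer and has a pair of such domains. Both assays count the polyadenylated end of a transcript, and 0% of the 50-base words in the last 400 bases of these transcripts occurred in another gene's transcripts, so reads of the 6 members could be told apart there.

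*Ly6a* was highest in basal interfollicular wells and near its floor in both hair follicle classes (the plot of summed transcripts by class). In the IFE I-like sums of *Troy*-EGFP plates 1 to 4 it stood at 444, 422, 142 and 163 CPM (transcripts scaled to a common total by library size and TMM factors), from 16, 46, 22 and 32 transcripts. The plates named M lay above those named F without overlap, and the letter, depth and plate cannot be told apart here. In the IFE II-like sums of plates 2 to 4 it stood at 297, 113 and 54.8 CPM. In the lower HF-like sums it stood at 22.8, 0 and 11.7 CPM, from 2, 0 and 2 transcripts, where 3 transcripts would be 34.3, 31.3 and 17.5 CPM on the same scale. In the upper HF-like sums it stood at 99.7, 0 and 0 CPM, and the 5 transcripts behind the first value came from 2 wells of plate 2. The IFE I-like sums lay above all follicle sums and overlapped the IFE II-like sums.

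**Figure D1:**
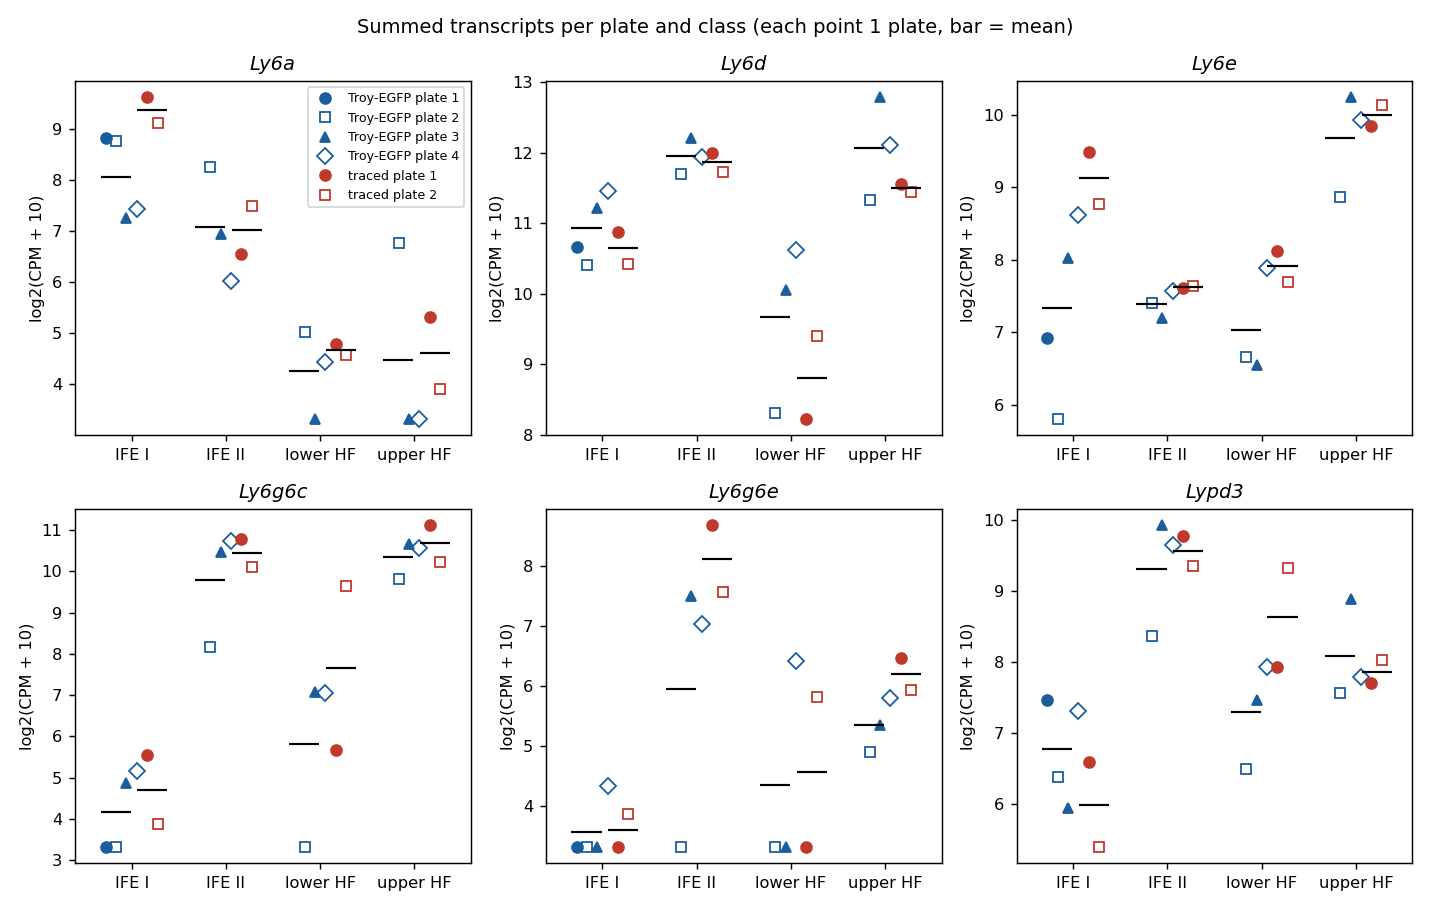
Level of the 6 genes in the summed transcripts of each plate and class, as log2(CPM + 10), with blue symbols for the Troy-EGFP plates, red symbols for the traced plates and a black bar at the mean of each experiment. Ly6a is lower in the follicle classes than in IFE I on each of the 5 plates with both, Ly6g6c is high in IFE II and upper HF, and Ly6e is highest in upper HF.

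Mean *Ly6a* levels over plates followed the order IFE I-like (293 CPM, range 142 to 444, n = 4), IFE II-like (155 CPM, range 54.8 to 297, n = 3), upper HF-like (33.2 CPM, n = 3) and lower HF-like (11.5 CPM, n = 3). Between neighbours in this order, IFE II-like sums against IFE I-like sums gave a log2 fold change of -1.05 (SE 0.77, edgeR's quasi-likelihood test, adjusted p = 0.671). Upper HF-like against IFE II-like sums gave -2.38 (SE 1.10, adjusted p = 0.295), which passed with the plate as a block (-2.51, adjusted p = 0.00718). The upper and lower HF-like sums overlapped. Across the follicle boundary *Ly6a* was lower in lower HF-like than in IFE I-like sums (log2 fold change -4.50, SE 1.04, adjusted p = 0.0140). In upper HF-like sums the change was -3.43 (SE 1.02, adjusted p = 0.0652), and with the plate as a block -3.25 (adjusted p = 0.000136). Without plate 3 or plate 4 the lower HF-like call was lost (adjusted p = 0.126 and 0.115) at log2 fold changes of -4.19 and -4.73. Without plate 2, which held all 5 upper HF-like transcripts, the upper HF-like change was -7.78 (adjusted p = 0.00130), a size that depends on how zeros are handled.

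The traced plates gave the same order of the interfollicular classes above the follicle classes. *Ly6a* stood at 778 and 543 CPM in IFE I-like sums of traced plates 1 and 2, at 83.9 and 169 CPM in IFE II-like sums, at 17.6 and 13.8 CPM in lower HF-like sums and at 30.1 and 5.10 CPM in upper HF-like sums. Both traced IFE I-like sums were above all 4 *Troy*-EGFP sums, a difference that cannot be told apart from genotype, sex, tamoxifen, plate and sorting. The traced CPM were scaled in the fit of both experiments and the *Troy*-EGFP CPM in a fit of their own. The change was -5.34 in lower HF-like sums (SE 0.95, adjusted p = 0.00150) and -5.23 in upper HF-like sums (SE 0.95, adjusted p = 0.00228). In IFE II-like sums it was -2.40 (SE 0.78, adjusted p = 0.143), which passed with the plate as a block (adjusted p = 3.56e-05).

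Counted by wells, *Ly6a* was found in more basal than committed wells and in few wells of the follicle. To compare wells of unequal depth, each was thinned to 1000 transcripts, which left out no well, and plate means were taken over plates with at least 10 wells of the class. *Ly6a* was then present in 28 of 159 IFE I-like wells of the *Troy*-EGFP plates (plate mean 21.7% ± 13.8, SD, n = 4 plates), against 63 of 159 before thinning (plate mean 43.1%). It was present in 7 of 115 IFE II-like wells (8.38% ± 5.36, n = 3), in 0 of 153 lower HF-like wells (95% upper limit 2.38%, exact binomial) and in 0 of 71 upper HF-like wells (upper limit 5.06%). These limits hold for thinned wells, and before thinning *Ly6a* was present in 4 of 153 (2.61%) and 2 of 71 (2.82%) of these wells. On the traced plates it was present in 63 of 146 IFE I-like wells (43.0% ± 2.05, n = 2), against 101 of 146 before thinning (plate mean 69.1%). It was present there in 6 of 50 IFE II-like wells, in 1 of 106 lower HF-like wells and in 1 of 99 upper HF-like wells. Langerhans cell-like wells held it in 0 of 39 (upper limit 9.03%) and T cell-like wells in 0 of 43 on the *Troy*-EGFP plates and in 2 of 28 on the traced plates (7.14%, 95% interval 0.877% to 23.5%). Before thinning the median depth was 3008 transcripts in Langerhans cell-like and 1717 in T cell-like wells of the *Troy*-EGFP plates, against 3210 in IFE I-like wells. The limits cover counting error only.

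*Ly6d*, known as the E48 antigen of keratinocytes, was found in most interfollicular and upper follicle wells and, among the 4 epidermal classes, was lowest in the lower follicle. It stood at 1610, 1350, 2371 and 2788 CPM in IFE I-like sums of plates 1 to 4, at 3317, 4731 and 3927 CPM in IFE II-like sums of plates 2 to 4, at 308, 1055 and 1558 CPM in lower HF-like sums and at 2551, 7068 and 4406 CPM in upper HF-like sums. Within each of plates 2 to 4 it was higher in IFE II-like and upper HF-like and lower in lower HF-like than in IFE I-like sums. The log2 fold changes against IFE I-like sums were 0.97 in IFE II-like (SE 0.45, adjusted p = 0.339), -1.06 in lower HF-like (SE 0.47, adjusted p = 0.267) and 1.2 in upper HF-like sums (SE 0.45, adjusted p = 0.163). With the plate as a block all 3 passed, at 0.93 (adjusted p = 0.00350), -1.21 (adjusted p = 0.000161) and 1.07 (adjusted p = 0.000583). Between the upper HF-like and IFE II-like sums the difference was 0.23, with a 95% interval from -0.73 to 1.18.

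In the traced mice *Ly6d* stood at 1871 and 1367 CPM in IFE I-like, 4069 and 3394 CPM in IFE II-like, 288 and 665 CPM in lower HF-like and 3009 and 2766 CPM in upper HF-like sums. None of the 3 contrasts against IFE I-like sums passed (adjusted p = 0.417, 0.0889 and 0.637), and all 3 passed with the plate as a block (adjusted p = 0.00120, 4.24e-06 and 0.0287). After thinning, *Ly6d* was present in 93.9% of the committed IFE II-like wells of the *Troy*-EGFP plates, in 90.1% of upper HF-like, 73.6% of IFE I-like and 39.2% of lower HF-like wells. T cell-like wells held it in 46.5% and Langerhans cell-like wells in 35.9%, so no expression is read from the lower HF-like share alone. The pooled transcripts gave 890 CPM in lower HF-like, 635 CPM in T cell-like and 331 CPM in Langerhans cell-like wells. In the traced experiment the shares were 17% in lower HF-like and 10.7% in T cell-like wells, with 500 and 54 CPM of pooled transcripts.

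*Ly6e*, an interferon-inducible member also known as thymic shared antigen, was highest among epidermal classes in upper HF-like sums and higher still in T cell-like wells. In IFE I-like sums of plates 1 to 4 it stood at 111, 45.9, 251 and 382 CPM, in IFE II-like sums of plates 2 to 4 at 160, 137 and 181 CPM, and in lower HF-like sums at 91.4, 83.6 and 228 CPM. In upper HF-like sums it stood at 458, 1204 and 968 CPM, above every sum of the other 3 classes. It was higher there than in IFE I-like sums by 2.07 (SE 0.55, adjusted p = 0.0390) and than in IFE II-like sums by 2.46 (SE 0.62, adjusted p = 0.0331). The first call was lost without any of plates 1, 3 and 4 (adjusted p = 0.0867, 0.409 and 0.126) and the second without plate 3 or 4 (adjusted p = 0.578 and 0.251), at log2 fold changes between 1.88 and 2.55. The first was also lost with the family genes kept for clustering, at a resolution of 0.5, with a minimum of 2000 transcripts per well and with a minimum of 5 wells per sum (adjusted p = 0.0651, 0.0536, 0.0803 and 0.0717). The contrasts of IFE II-like and lower HF-like with IFE I-like sums were -0.39 (adjusted p = 0.885) and -0.59 (adjusted p = 0.751).

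On the traced plates *Ly6e* stood at 709 and 428 CPM in IFE I-like, 185 and 190 CPM in IFE II-like, 270 and 198 CPM in lower HF-like and 915 and 1113 CPM in upper HF-like sums. None of its contrasts with IFE I-like sums passed (adjusted p = 0.275, 0.309 and 0.668), and with the plate as a block all 3 passed, at -1.60 (adjusted p = 0.00156), -1.28 (adjusted p = 0.00287) and 0.86 (adjusted p = 0.0481). Of the 99 traced upper HF-like wells 55 lay in a cluster of traced wells that could not be named, in which *Ly6e* stood at 1050 CPM of pooled transcripts, against 641 CPM in the traced cluster that met the upper HF list and 519 CPM in the one that met the IFE I list. With traced wells named by their own clusters the upper HF-like change was 0.33 (adjusted p = 0.840). In T cell-like wells *Ly6e* stood at 2030 CPM of pooled transcripts on the *Troy*-EGFP plates and 3620 CPM on the traced plates, against 771 and 988 CPM in pooled upper HF-like wells, and in Langerhans cell-like wells at 461 CPM. After thinning it was present in 74.4% of T cell-like, 33.3% of Langerhans cell-like, 43.7% of upper HF-like, 20.8% of basal, 11.3% of committed and 9.80% of lower HF-like wells of the *Troy*-EGFP plates. The summed T cell marker level was 0 to 59.8 CPM in the upper HF-like sums and 0 to 174 CPM in the IFE I-like sums, and the summed Langerhans cell marker level was 359 to 1265 CPM and 83.3 to 989 CPM. The part of these cells in the *Ly6e* difference was not tested.

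*Ly6g6c*, a gene of the major histocompatibility complex region, was high in committed interfollicular and upper follicle wells and almost not found in basal wells. In IFE I-like sums of plates 1 to 4 it stood at 0, 0, 19.3 and 25.5 CPM, from 8 transcripts in all. In IFE II-like sums of plates 2 to 4 it stood at 275, 1417 and 1682 CPM, in lower HF-like sums at 0, 125 and 123 CPM, and in upper HF-like sums at 897, 1605 and 1493 CPM. No IFE II-like or upper HF-like sum overlapped an IFE I-like or lower HF-like sum. The log2 fold change against IFE I-like sums was 6.15 in IFE II-like sums (SE 0.88, adjusted p = 0.00165) and 6.37 in upper HF-like sums (SE 0.89, adjusted p = 0.000577), with so few basal transcripts that its size depends on how zeros are handled. In lower HF-like sums it was 2.43 (SE 0.94, adjusted p = 0.178), and 2.33 with the plate as a block (adjusted p = 0.00351). Between upper HF-like and IFE II-like sums it was 0.22, with a 95% interval from -1.15 to 1.59. The IFE II-like call was lost without plate 3 or 4 (adjusted p = 0.118 and 0.109), and the upper HF-like call without plate 3 (adjusted p = 0.05).

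In the traced mice *Ly6g6c* stood at 36.4 and 4.60 CPM in IFE I-like, 1745 and 1086 CPM in IFE II-like and 2226 and 1194 CPM in upper HF-like sums, with log2 fold changes of 5.96 (SE 1.19, adjusted p = 0.0120) and 6.23 (SE 1.2, adjusted p = 0.00378). In lower HF-like sums it stood at 41.1 and 789 CPM and passed as well (4.2, SE 1.14, adjusted p = 0.0338). There 1 well held 50.5% of all *Ly6g6c* transcripts of the class, and without traced plate 2 the change was 0.17. The summed level of the IFE II list moved with it, at 4416 and 13041 CPM in the traced lower HF-like sums (7 and 8 of 9 markers found) against 802 and 543 CPM in IFE I-like sums. The lower HF list of these sums stood at 7623 and 6624 CPM, so that on traced plate 2 it was below the IFE II list. The part of committed cells in this change was not tested. After thinning, *Ly6g6c* was present in 51.3% of IFE II-like and 40.8% of upper HF-like wells of the *Troy*-EGFP plates, against 0.629% of IFE I-like and 3.92% of lower HF-like wells. T cell-like wells held it in 2 of 43 (4.65%) and Langerhans cell-like wells in 0 of 39. In the traced experiment the shares in the same order of epidermal classes were 50%, 33.3%, 1.37% and 3.77%, with 0 of 28 T cell-like wells (upper limit 12.3%). These few wells do not separate the lower HF-like shares from those of the immune classes.

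**Figure D2:**
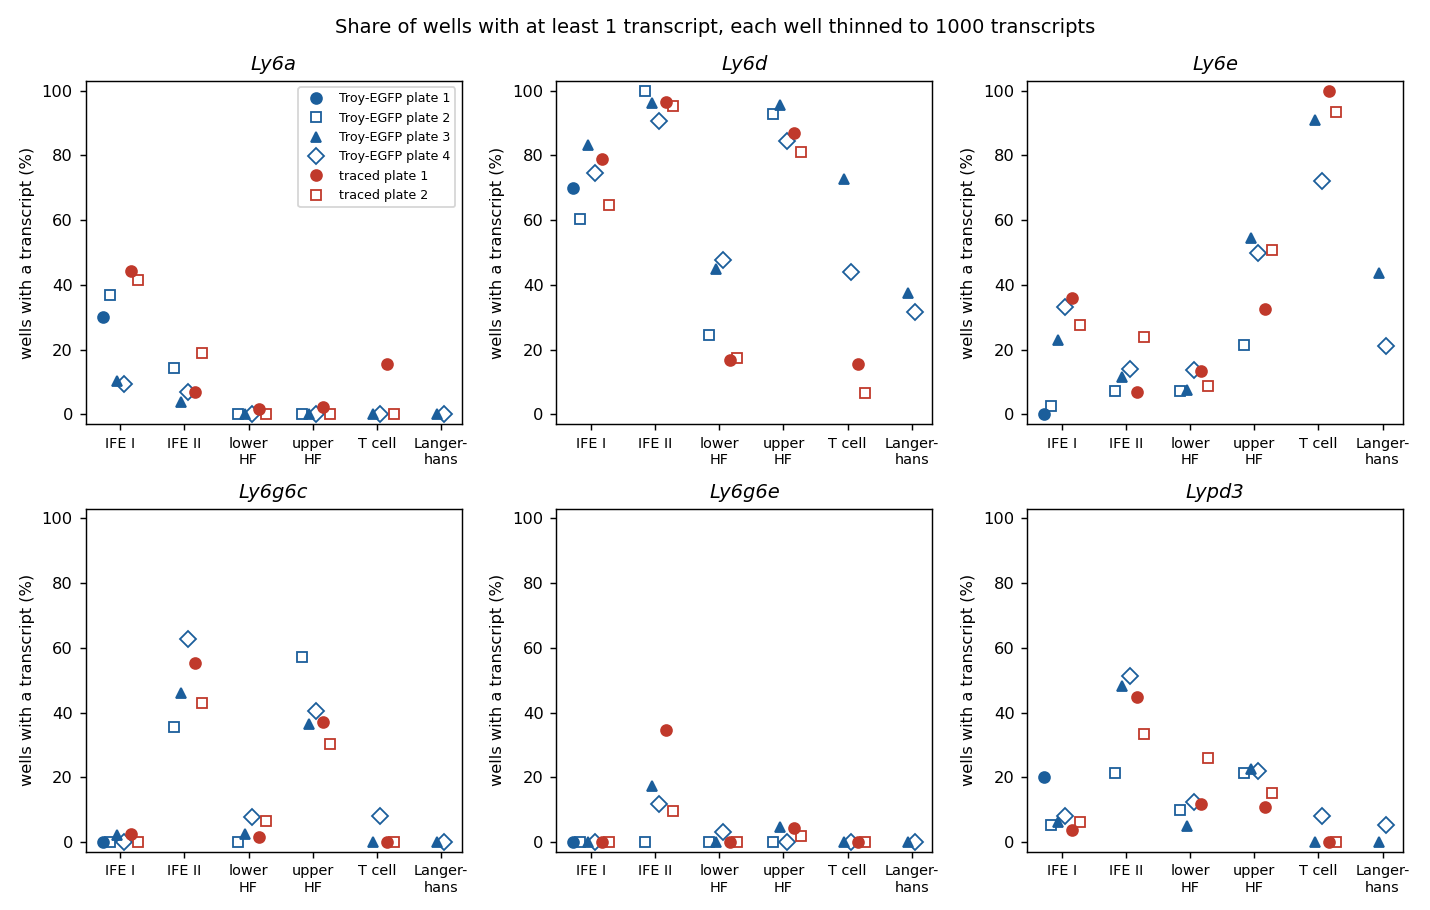
Percent of wells with at least 1 transcript of each gene after thinning each well to 1000 transcripts, by class, with 1 symbol per plate for classes of at least 10 wells on that plate (blue Troy-EGFP plates, red traced plates). Ly6a is at most 2.17% in the follicle classes, Ly6g6c is between 30.2% and 62.8% in IFE II and upper HF wells, and Ly6e is highest in T cell-like wells.

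Its chromosomal neighbour *Ly6g6e* had fewer transcripts, most of them in committed interfollicular wells. In the *Troy*-EGFP sums it had 2 and 57 transcripts in the basal and committed interfollicular sums and 13 and 8 in the lower and upper follicle sums, which fell below the filter on low counts, so it was not tested there. In IFE II-like sums of plates 2 to 4 it stood at 0, 172 and 121 CPM, in upper HF-like sums at 19.9, 30.9 and 46.1 CPM and in lower HF-like sums at 0, 0 and 75.9 CPM, and in IFE I-like sums of plates 1 to 4 at 0, 0, 0 and 10.2 CPM. On plates 3 and 4 the IFE II-like sum was the highest, and on plate 2 only the upper HF-like sum was above 0, with 1 transcript. On the traced plates it stood at 403 and 179 CPM in IFE II-like, 78.2 and 51.0 CPM in upper HF-like, 0 and 46.2 CPM in lower HF-like and 0 and 4.60 CPM in IFE I-like sums. The IFE II-like change was 6.71 (SE 1.38, adjusted p = 0.0137) against 1 IFE I-like transcript in all. The upper HF-like change was 4.53 (SE 1.5, adjusted p = 0.112), and 4.55 with the plate as a block (adjusted p = 0.00235). It also passed with traced wells named by their own clusters. Both traced upper HF-like sums of *Ly6g6e* lay below both traced IFE II-like sums, a contrast that was not tested, while those of *Ly6g6c* did not separate. Many of these upper HF-like wells lay in the unnamed traced cluster, with *Ly6g6e* at 0 and *Ly6g6c* at 20.9 CPM of pooled transcripts. In the traced cluster that met the upper HF list they stood at 151 and 3381 CPM, against 290 and 1364 CPM in the one that met the IFE II list.

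*Lypd3* was highest in committed interfollicular wells. In IFE I-like sums of plates 1 to 4 it stood at 167, 73.4, 51.6 and 148 CPM, in IFE II-like sums of plates 2 to 4 at 320, 966 and 789 CPM, in lower HF-like sums at 79.9, 167 and 233 CPM and in upper HF-like sums at 179, 463 and 212 CPM. The lowest IFE II-like sum was above every IFE I-like and lower HF-like sum and below 1 of the upper HF-like sums. Its change in IFE II-like sums was 2.75 (SE 0.52, adjusted p = 0.00738), lost without plate 3 or 4 (adjusted p = 0.238 and 0.153). In upper HF-like sums it was 1.44 (SE 0.54, adjusted p = 0.155), and with the plate as a block 1.55 (adjusted p = 0.00375). It was also lower in upper HF-like than in IFE II-like sums with the block (-1.35, adjusted p = 0.00208) and not without it (-1.31, SE 0.53, adjusted p = 0.217).

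In the traced mice *Lypd3* stood at 86.1 and 32.2 CPM in IFE I-like, 864 and 643 CPM in IFE II-like, 235 and 628 CPM in lower HF-like and 199 and 250 CPM in upper HF-like sums. It rose in IFE II-like sums (3.62, SE 0.68, adjusted p = 0.00651) and in lower HF-like sums (2.82, SE 0.66, adjusted p = 0.0139). In the lower HF-like wells 1 well held 38.5% of the transcripts, and without traced plate 2 the change was 1.43. The IFE II list was raised in these same lower HF-like sums (4416 and 13041 CPM), and its part in the *Lypd3* change was not tested. The upper HF-like change was 1.87 (SE 0.66, adjusted p = 0.148), and 1.81 with the plate as a block (adjusted p = 0.00248). It also passed with traced wells named by their own clusters.

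The promoters of *Lypd3* and *Ly6g6c* are shown because they were the only ones of the 6 members matched in the reference used. Both genes had called rises in committed wells of both experiments. The windows are RefSeq promoters (GRCm38.p6, 250 bases before to 50 bases after the RefSeq gene start), and the capitals mark the motifs found.
Lypd3, chr7:24636320-24636619, plus strand: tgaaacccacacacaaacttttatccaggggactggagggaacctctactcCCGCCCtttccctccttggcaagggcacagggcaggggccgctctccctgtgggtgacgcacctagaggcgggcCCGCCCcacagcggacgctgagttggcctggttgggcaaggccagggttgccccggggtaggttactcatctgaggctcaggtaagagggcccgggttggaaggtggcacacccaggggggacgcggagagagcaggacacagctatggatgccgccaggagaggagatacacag
Ly6g6c, chr17:35067075-35067374, plus strand: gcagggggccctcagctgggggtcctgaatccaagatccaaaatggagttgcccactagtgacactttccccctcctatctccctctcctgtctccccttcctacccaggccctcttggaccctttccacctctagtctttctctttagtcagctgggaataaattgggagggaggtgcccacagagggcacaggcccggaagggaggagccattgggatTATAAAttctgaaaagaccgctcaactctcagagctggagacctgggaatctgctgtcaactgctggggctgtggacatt

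The RefSeq start lay 20 bases downstream of the GENCODE start given above for *Lypd3* and 1937 bases downstream of it, inside the GENCODE gene, for *Ly6g6c*. *Lypd3* had the GC box (GGGCGG, here on the opposite strand) starting at positions -199 and -125 from the RefSeq start and no TATA match. *Ly6g6c* had TATAAA at position -30 and no GC box. Among 32851 promoters of the same length, 35.7% held the GC box and 13.6% held TATAAA on either strand. The AP-1 letters TGANTCA (7.81% of promoters), the STAT letters TTCNNNGAA (8.30%) and the interferon-stimulated response element (3.44%) had no match in these windows. The motifs do not overlap each other.

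Counted over members, the class contrasts were read against all genes tested. In the *Troy*-EGFP sums 5 of the 6 members were tested among 3136 genes. In IFE II-like sums against IFE I-like sums 2 of 5 members passed, both higher, with 4.15% of all genes called. In lower HF-like sums 1 of 5 passed, lower, with 7.43% of all genes called, and in upper HF-like sums 2 of 5 passed, both higher, with 5.87% called. In upper HF-like against IFE II-like sums 1 of 5 passed, higher, with 5.13% called. With the plate as a block 3, 3, 5 and 3 of the 5 members passed in these 4 contrasts, while the shares of all genes called rose to 11.7%, 15.6%, 15.1% and 15%. Without the block the median log2 fold change of the members was 0.97, -0.59, 1.44 and 0.22, where that of all genes was between -0.04 and 0.02.

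In the fit with the traced plates all 6 members were tested among 5704 genes. In traced IFE II-like sums 3 of 6 passed, all higher, with 1.74% of all genes called. In traced lower HF-like sums 3 of 6 passed, *Ly6a* lower and *Ly6g6c* and *Lypd3* higher, with 4.79% called. In traced upper HF-like sums 2 of 6 passed, *Ly6a* lower and *Ly6g6c* higher, with 3.54% called. With the plate as a block 6, 5 and 6 of the 6 members passed, with 6.59%, 13.4% and 9.69% of all genes called. The traced contrasts shared 1 fit, and with 2 plates every traced call of a member was lost when either plate was left out.

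**Figure D3:**
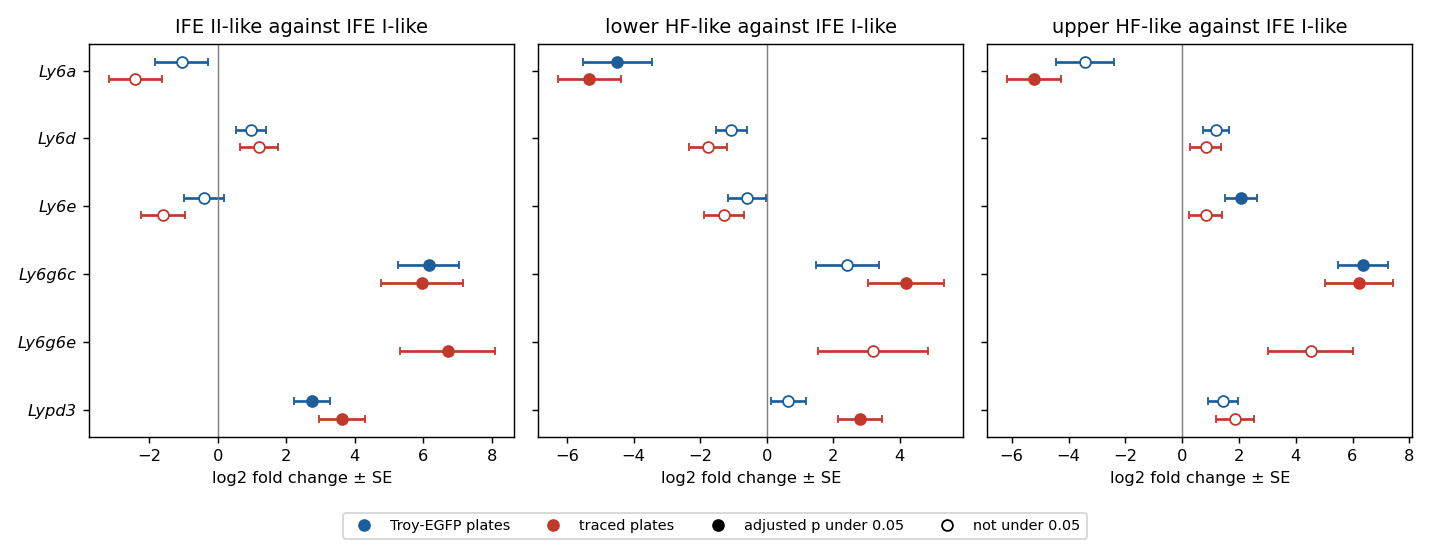
Log2 fold change ± SE of each gene against IFE I-like sums in the Troy-EGFP plates (blue) and the traced plates (red), with filled symbols where the adjusted p was under 0.05. Ly6a lies below 0 and Ly6g6c above 0 in all 3 panels and both experiments, and Ly6g6e has no blue symbol because it was not tested in the Troy-EGFP sums.

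Whether a class contrast differed between the traced and the *Troy*-EGFP plates was tested as the difference of the contrasts. Among 5704 genes 0% were called for each of the contrasts of committed, lower follicle and upper follicle with basal sums by edgeR's quasi-likelihood test, with 137, 188 and 148 genes at an unadjusted p under 0.05. Of the 18 member values only *Lypd3* in lower HF-like sums had an unadjusted p under 0.05 in edgeR (difference 2.15, 95% interval 0.49 to 3.81, adjusted p = 1.00). For *Ly6a* the differences were -1.35 (95% interval -3.32 to 0.61), -0.84 (-4.01 to 2.33) and -1.73 (-4.64 to 1.18). With the plate as a block 4 of the 18 had an unadjusted p under 0.05 and 0 were called, with 0%, 0.193% and 0.0175% of all genes called. These were *Ly6a* in IFE II-like (-1.69, 95% interval -2.82 to -0.56, adjusted p = 0.981), *Ly6e* in IFE II-like (-1.01, -1.98 to -0.04, adjusted p = 1.00) and in upper HF-like (-1.08, -1.88 to -0.27, adjusted p = 0.841) and *Lypd3* in lower HF-like sums (1.93, 0.77 to 3.09, adjusted p = 0.276).

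*Ly6a* was then set against each relative within plates, as the change of the relative minus the change of *Ly6a* from IFE I-like to another class, on log2(CPM + 10), over the 5 plates that had both sums. A difference above 0 means that the relative fell less than *Ly6a* or rose. In lower HF-like sums it was above 0 in 5 of 5 plates for *Ly6d* (mean 2.45 ± 0.72, SD), which fell less than *Ly6a* on all 5, for *Ly6e* (3.25 ± 0.93), which fell less on 4 and rose on 1, and for *Lypd3* (5.51 ± 1.97), which rose. No value is given for *Ly6g6c* and *Ly6g6e* in lower HF-like sums or for *Ly6g6e* in IFE II-like sums, since both sums of the relative were at 0 on 1, 3 and 1 of the plates, where the difference holds the change of *Ly6a* alone. In upper HF-like sums it was above 0 in 5 of 5 plates for all 5 relatives, with means from 4.87 ± 1.24 for *Ly6d* to 9.83 ± 1.11 for *Ly6g6c*. For *Ly6g6e* the upper HF-like sums of *Troy*-EGFP plates 2 and 3 held 1 and 2 transcripts, against 0 in IFE I-like sums. Its rise there rests on fewer than 3 transcripts. The size for *Ly6g6c* depends on the 10 CPM added, since its basal sums and most follicle sums of *Ly6a* were near 0. All relatives were set against the same change of *Ly6a*. In IFE II-like sums the difference was above 0 in 5 of 5 plates for *Ly6d*, *Ly6g6c* and *Lypd3* and in 4 of 5 for *Ly6e* (mean 0.73 ± 0.98). The exact two-sided sign-flip permutation test gave p = 0.25 for *Ly6e* in IFE II-like sums and p = 0.0625, the smallest value that 5 plates allow, for each of the other values given. After adjustment over the 15 comparisons computed, the 3 without a value included, these were 0.25 and 0.0670, so the design could not reach 0.05.

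Wells with and without *Ly6a* were then compared within a class, as a description with no test. Of the 28 thinned IFE I-like wells of the *Troy*-EGFP plates with *Ly6a*, 67.9% held *Ly6d*, against 74.8% of the 131 without it, and 17.9% against 21.4% held *Ly6e*. These shares pool plates that differed in both *Ly6a* and *Ly6e*. Before thinning, *Ly6a* was in 50%, 57.9%, 31.2% and 33.3% of IFE I-like wells of plates 1 to 4, and *Ly6e* in 10%, 13.2%, 37.5% and 55.6%. Shares within plates were not compared, so no direction is read from the pooled values. In the traced experiment the 63 wells with *Ly6a* held *Ly6d* in 76.2% and *Ly6e* in 36.5%, against 69.9% and 28.9% of the wells without it. In IFE II-like wells of the *Troy*-EGFP plates *Ly6g6c* was present in 2 of 7 wells with *Ly6a* and in 52.8% of those without it. On the traced plates it was present in 50% of both. At least 3 members were found in 35.7% of IFE II-like and 32.4% of upper HF-like wells, against 5.03% of IFE I-like and 3.27% of lower HF-like wells of the *Troy*-EGFP plates. None of the 6 was found in 17.6% of IFE I-like and 49.0% of lower HF-like wells.

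Over the 13 *Troy*-EGFP sums, log2(CPM + 10) of *Ly6a* had a Pearson r of -0.03 with *Ly6d*, -0.47 with *Ly6e*, -0.46 with *Ly6g6c* and -0.19 with *Lypd3*. Among the relatives r was 0.75 between *Ly6d* and *Ly6g6c*, 0.80 between *Ly6g6c* and *Lypd3*, 0.66 between *Ly6d* and *Ly6e* and 0.25 between *Ly6e* and *Lypd3*. These values are descriptions, since the sums share plates and depth. The 5 genes outside the family with the highest r with *Ly6a*, of 3130, were *Ivns1abp* (0.916), *Celsr1* (0.908), *Rab1* (0.900), *Il22ra2* (0.900) and *Fam162a* (0.897). *Il22ra2*, which encodes a secreted binding protein of interleukin 22, had mean levels of 95.9 and 44.5 CPM in the basal and committed interfollicular sums and of 7.29 and 39.9 CPM in the lower and upper follicle sums. The most alike genes were *Prom2*, *Gltp* and *Map2k4* for *Ly6d* (0.914 to 0.921), *Cldn1*, *Tap2* and *Ptp4a2* for *Ly6e* (0.847 to 0.886), *Hebp2*, *Elovl1* and *Clic3* for *Ly6g6c* (0.913 to 0.917) and *Prdx5*, *Perp* and *Acer1* for *Lypd3* (0.868 to 0.894). *Acer1*, a ceramidase of the differentiating epidermis, had mean levels of 9.94, 345, 26.7 and 98.9 CPM in the same order.

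The bulk libraries compare the sorted basal populations with each other and with all viable cells (the plot of bulk CPM). In these libraries fewer cells of a type and less RNA per cell cannot be told apart. *Ly6e* stood at 464 and 334 CPM in EGFP+ cells of mice 1 and 2, at 2401 and 2070 CPM in EGFP- cells and at 677 and 656 CPM in viable cells. Both EGFP- libraries were above the other 4 libraries. *Ly6e* was lower in EGFP+ than in EGFP- cells by a log2 fold change of -2.47 (SE 0.31, adjusted p = 3.03e-05) and higher in EGFP- than in viable cells by 1.74 (SE 0.30, adjusted p = 0.00314). The second call was lost without either viable library (adjusted p = 0.0712 and 0.0816). Beside this and the other members' bulk values, the summed level of the upper HF marker list was 4117 to 7738 CPM in EGFP- and 729 to 907 CPM in EGFP+ cells, with 7 of 8 markers found in each library. The lower HF list was at 2295 to 4327 and 774 to 947 CPM and the sebocyte list at 332 to 362 and 158 to 201 CPM in the same order. The fibroblast list was at 64.1 to 83.0 and 5.36 to 13.5 CPM, with 2 and 4 of 5 markers found in EGFP- and 1 of 5 in EGFP+ libraries. The IFE I list was lower in EGFP- cells (16186 to 17942 against 29483 to 30683 CPM), and so was the IFE II list (1347 to 1797 against 3468 to 3569 CPM). In the viable libraries the upper HF list stood at 3651 to 4629 CPM and the Langerhans cell list at 358 to 638 CPM. The Langerhans cell list was at 1353 to 1397 CPM in EGFP- and 99.2 to 110 CPM in EGFP+ cells, with 6 to 7 and 4 of 8 markers found, and *Cd207* at 1 and 3 counts in EGFP- and 0 and 0 in EGFP+ cells. The T cell list was at 204 to 430 and 221 to 324 CPM, with 6 to 8 and 3 of 8 markers found, and *Cd3e* at 4 and 6 against 1 and 0 counts. The part of these cells in the bulk differences of *Ly6e* and the other members was not tested.

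**Figure D4:**
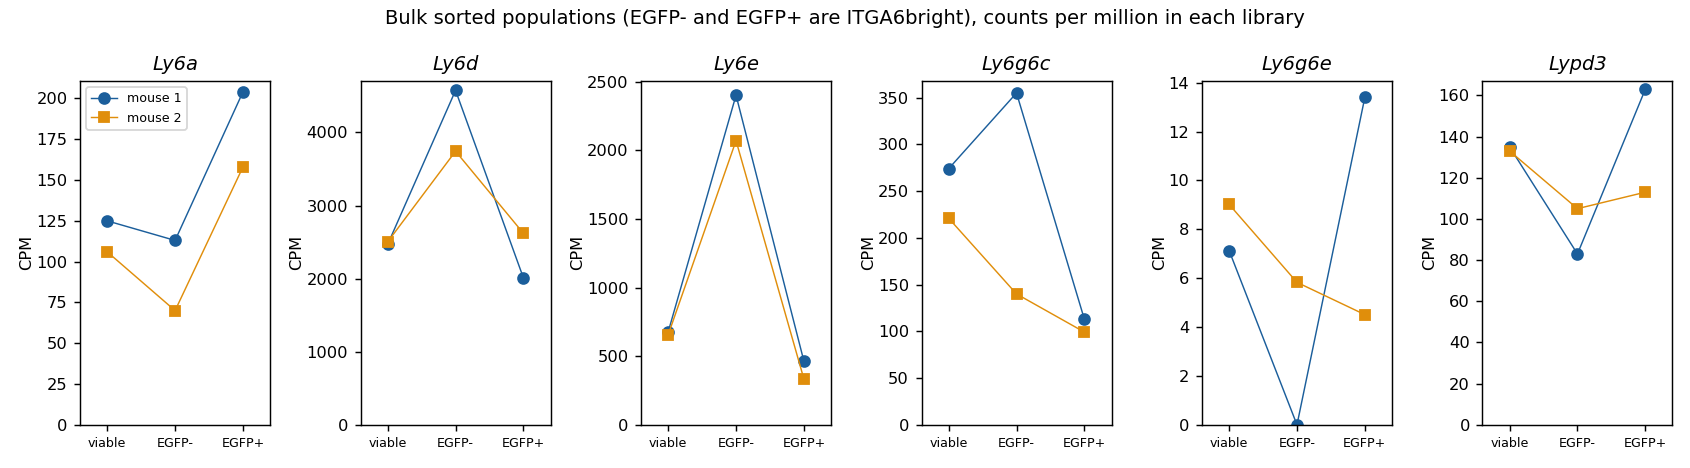
CPM of each gene in viable, ITGA6bright EGFP- and ITGA6bright EGFP+ cells, with a line joining the 3 libraries of each of the 2 mice and axes that start at 0. Ly6e is at 2401 and 2070 CPM in EGFP- cells and at most 677 CPM in the other libraries, while Ly6a is highest in EGFP+ cells of both mice.

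*Ly6a* stood at 204 and 158 CPM in EGFP+, 113 and 70.0 CPM in EGFP- and 125 and 106 CPM in viable cells, so that both EGFP+ libraries were above the other 4. The difference from EGFP- cells was 1.03 (SE 0.36, 95% interval 0.31 to 1.74) and did not pass (adjusted p = 0.0992, and 0.0681 with the mouse as a block). It passed without the EGFP- library of mouse 1 (1.40, adjusted p = 0.0213). The difference from viable cells was 0.68 (SE 0.31, adjusted p = 0.688).

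*Ly6d* stood at 2010 and 2620 CPM in EGFP+, 4575 and 3743 CPM in EGFP- and 2469 and 2504 CPM in viable cells. Its difference between EGFP+ and EGFP- cells was -0.85 (SE 0.31, adjusted p = 0.111), and it passed without either EGFP- library (adjusted p = 0.0343 and 0.000812). *Ly6g6c* stood at 113 and 99.2 CPM in EGFP+, 355 and 140 CPM in EGFP- and 274 and 221 CPM in viable cells. With the mouse as a block it was lower in EGFP+ than in EGFP- cells (-1.18, adjusted p = 0.0160) and than in viable cells (-1.26, adjusted p = 0.0192), and without the block neither passed (adjusted p = 0.0747 and 0.247). The first rested on the EGFP- library of mouse 1, since it was -0.37 without that library and -1.66 without the other (adjusted p = 0.677 and 4.32e-05). *Lypd3* stood at 163 and 113 CPM, 83.0 and 105 CPM, and 135 and 133 CPM in the same order, and no contrast passed (adjusted p = 0.427 or above). *Ly6g6e* had 5 and 1 counts in EGFP+, 0 and 1 in EGFP- and 2 and 4 in viable libraries and was not tested.

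Of the 5 members tested in bulk, 1 passed between EGFP+ and EGFP- cells, lower, with 7.05% of 4653 genes called. Between EGFP+ and viable cells 0 passed, with 0.473% called, and 3 of the 5 had an unadjusted p under 0.05 in edgeR, while DESeq2 called 0. Between EGFP- and viable cells 1 passed, higher, with 1.78% called. With the mouse as a block 2, 1 and 1 members passed in these comparisons, with 10.1%, 1.05% and 3.5% of all genes called. The 3 comparisons share libraries. Together the 6 members made up 0.274% and 0.311% of the counts in EGFP+, 0.633% and 0.559% in EGFP- and 0.339% and 0.355% in viable libraries.

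Few other family genes were abundant enough to test. *Cd59a*, an inhibitor of complement on the cell surface, was at means of 117, 112, 83.8 and 97.4 CPM in the *Troy*-EGFP sums for basal, committed, lower follicle and upper follicle wells and at 62.5, 94.4 and 93.0 CPM in EGFP+, EGFP- and viable bulk cells, and it passed in no comparison. *Lypd6b* was tested in bulk, at 47.2 CPM in EGFP+ against 9.62 CPM in EGFP- cells (log2 fold change 2.17, SE 0.83, adjusted p = 0.128). The other genes of the list were not tested in any comparison. *Ly6c1*, also on chromosome 15, had 7 and 4 transcripts in IFE I-like and IFE II-like *Troy*-EGFP sums.

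Since *Ly6a* and *Ly6e* are known to respond to interferon, a list of 30 interferon-stimulated genes was read beside them. Only 4 of the 30 were tested in the *Troy*-EGFP sums and 8 in bulk and in the fit with the traced plates. In the committed against the basal *Troy*-EGFP sums 0 of 4 passed in edgeR (3 at an unadjusted p under 0.05), with 4.15% of all genes called. In lower HF-like sums 1 of 4 passed, lower, with 7.43% called, and in upper HF-like sums 1 of 4 passed, lower, with 5.87% called, each time *Oas1f*. In lower HF-like sums *B2m*, *Ifitm3* and *Psmb8* were lower as well (unadjusted p = 0.0222, 0.0262 and 0.0134 in edgeR). The median of the 4 genes there was -1.36 against -0.03 of all genes. *Oas1f*, a gene of the oligoadenylate synthetase family, stood at means of 277, 574, 59.6 and 64.0 CPM in the basal, committed, lower follicle and upper follicle sums, and *Ifitm3* at 380, 105, 152 and 285 CPM. In upper HF-like against IFE II-like sums *B2m* was higher (0.99, SE 0.26, adjusted p = 0.0432) and *Oas1f* lower (-3.23, SE 0.44, adjusted p = 0.00138). In bulk, EGFP+ against EGFP- cells, *Ifitm3* was lower (-1.14, adjusted p = 0.0220) and *Oas1f* higher (2.60, adjusted p = 6.15e-05), and the median of the 8 genes tested was -0.77 against -0.04 of all genes. In traced IFE II-like and upper HF-like sums 0 of 8 passed in edgeR (2 and 1 at an unadjusted p under 0.05), with 1.74% and 3.54% of all genes called. In traced lower HF-like sums 1 of 8 passed, *Oas1f*, lower, with 4.79% called and a median of -1.3 against 0 of all genes.

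The names of the traced wells were also taken from clusters of their own, chosen after seeing the data. A cluster of 86 wells led by *Sostdc1*, *Lgals9* and *Aldh3a1* could not be named, and 55 of its wells had been called upper HF-like by transfer. In this cluster *Ly6e* stood at 1050 CPM of pooled transcripts, *Ly6g6c* at 20.9 CPM, *Ly6d* at 1493 CPM and *Ly6a* at 132 CPM (17.4% of wells), whereas in the 47 wells of the traced cluster that met the upper HF list *Ly6e* stood at 641 CPM, *Ly6g6c* at 3381 CPM, *Ly6d* at 4101 CPM and *Ly6a* at 0 CPM. With these names the traced upper HF-like change of *Ly6a* was -9.57 (adjusted p = 0.000835), a size that depends on how zeros are handled, and over the other alternatives it was -6.48 to -4.65. By plate, *Ly6e* in the unnamed cluster was at 1014 and 1086 CPM and *Ly6g6c* at 30.1 and 11.9 CPM, against 432 and 909 CPM and 3689 and 2988 CPM in the upper HF-like cluster. The transferred upper HF-like class of the traced plates therefore joined wells with much *Ly6g6c* and wells with almost none, and most of its wells came from the cluster with the higher *Ly6e*. The 99 wells of this class held *Ly6a* in 4, with 16 CPM of pooled transcripts. The 132 CPM of the unnamed cluster is therefore not the level of its wells called upper HF-like.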

How the data were processed

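Bulk libraries were made by CEL-Seq2 and single-cell plates by SORT-seq, both of which read the polyadenylated end of transcripts and count molecular barcodes. According to the labels, reads were mapped with BWA 0.6.2-r126 to mm10 (GRCm38), with hg19 also named for bulk. The authors deposited raw counts per gene for bulk and, per well, transcript numbers estimated from the barcodes, which were rounded in sums. ERCC and mitochondrial rows were left out. Mitochondrial rows made up 12.5% to 16.1% of the bulk counts.

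Wells with at least 1000 transcripts were normalised with SCTransform and clustered (Seurat 5.3.0, SeuratObject 5.2.0, sctransform 0.4.2, 20 components, resolution 0.8, plate regressed out). Ly6/uPAR genes were left out of the clustering genes. No doublet caller was run. Classes of traced wells came by anchor transfer (median score 1.00, lowest 0.411). Counts were summed per plate and class with at least 10 wells. Sums and bulk libraries were tested with edgeR 4.0.16 (quasi-likelihood test, TMM, filterByExpr, R 4.3.3) with Benjamini-Hochberg adjustment over all genes tested, at 0.05. DESeq2 1.42.0 was an alternative. The scripts were tested on simulated data.

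The 3 populations of a bulk replicate, and the classes of a plate, were taken as coming from the same animal. Deviations from the group means correlated at 0.0554 to 0.0933 within a mouse and at 0.33 to 0.621 within a plate, and blocked values stand beside the results whose call they change. The labels do not say how replicates were separated, so p-values measure the spread between these samples only. The members and gene lists were chosen with earlier results of these data known. Genes were named by a rule: the 6 members, the tested genes of the family list, up to 4 examples of the interferon list, and the genes of highest likeness (5 for *Ly6a* and 3 for each other tested member), with *Ly6c1* chosen after its values were seen.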

Additional observations from a re-analysis of the deposited data

Results flagged for a closer look

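In 12 groups of 4 plates, 2 values stood apart from the other 3 plates by Dixon's criterion. In both groups the other 3 plates were at exactly 0, so that any single count meets the criterion, and its usual chance rate of about 1 in 20 groups does not apply. *Ly6g6e* in the IFE I-like sums was at 10.2 CPM on *Troy*-EGFP plate 4, from 2 transcripts, and at 0 on the other plates. *Ly6g6c* was present in 2.08% of the thinned IFE I-like wells of plate 3, which is 1 well, and in 0% on the other plates. Both values rest on 1 or 2 transcripts or wells, below the 3 transcripts taken as a floor. Of 18 member contrasts compared between the experiments, 0 were called as different in edgeR, with 1 at an unadjusted p under 0.05 (0 called and 4 under 0.05 with the plate as a block).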

How the results depend on the processing

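Of 553 alternative values of members, 544 kept the direction of the reported value, 34 calls were lost and 44 were gained. The number of members called without 1 library in turn ranged from 1 to 3 between EGFP+ and EGFP- cells (reported 1), 0 to 2 between EGFP+ and viable cells (reported 0) and 0 to 2 between EGFP- and viable cells (reported 1). Without 1 plate in turn it ranged from 0 to 3 in IFE II-like, 0 to 2 in lower HF-like and 0 to 5 in upper HF-like against IFE I-like sums, and 0 to 3 in upper HF-like against IFE II-like sums. All calls in the traced plates fell to 0 without either plate, where the lone sum of a class was assumed to vary like the other groups. With the replicate block the counts became 2, 1 and 1 in bulk in the same order, 3, 3 and 5 in the committed, lower follicle and upper follicle sums against basal sums, 3 in upper HF-like against IFE II-like sums, and 6, 5 and 6 in the traced committed, lower follicle and upper follicle sums. The share of all genes called rose with the block in each of these comparisons as well. The block changed no other call of a member.

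The 2 populations alone gave 1 called member between EGFP+ and viable cells, with 66 of 4969 genes called (22 of 4653 in the reported fit). Without the filter on low counts 2 members were called in lower HF-like sums, with 382 of 16246 genes called (reported 233 of 3136). With the family genes kept for clustering, or at a resolution of 0.5, 1 was called in upper HF-like against IFE I-like sums. Of all genes 180 of 3165 and 185 of 3136 were then called (reported 184 of 3136). Naming traced wells by their own clusters, added after seeing the data, gave 4 in traced upper HF-like sums (*Ly6a*, *Ly6g6c*, *Ly6g6e* and *Lypd3*). Of all genes 485 of 4463 were called with these names, against 202 of 5704 in the reported fit. The difference between experiments stayed at 0 called members. The share of IFE I-like wells with *Ly6a* was 21.7% with and 43.1% without thinning.

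Of all values, 9 reversed. Without 1 library in turn, EGFP+ against viable cells gave -0.31 to 0.08 for *Ly6d* and -0.24 to 0.28 for *Lypd3*, and *Ly6g6c* in EGFP- against viable cells gave -0.83 to 0.48, with 0.07 without the viable library of mouse 1. Without 1 plate in turn, *Ly6e* in IFE II-like sums ranged from -0.79 to 0.13, *Ly6g6e* in traced lower HF-like sums from 0.00 to 3.10, and in upper HF-like against IFE II-like sums *Ly6d* from -0.08 to 0.37 and *Ly6g6c* from -0.04 to 0.45. With the plate not regressed out this last value was -0.06. The cause of these changes was not tested.

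Over all genes, counts of calls moved by more than 1.5 times in every comparison. Between EGFP+ and EGFP- cells 328 genes were called and 141 to 468 under the alternatives other than leaving out a library (131 to 751 when leaving one out). The same counts were 22, 10 to 66 and 7 to 124 for EGFP+ against viable cells, and 83, 33 to 163 and 27 to 464 for EGFP- against viable cells. They were 130, 81 to 367 and 4 to 312 in IFE II-like, 233, 222 to 488 and 50 to 386 in lower HF-like and 184, 105 to 473 and 32 to 327 in upper HF-like against IFE I-like sums, and 161, 102 to 471 and 4 to 367 in upper HF-like against IFE II-like sums. In the traced sums they were 99, 85 to 376 and 0 to 0, then 273, 240 to 766 and 15 to 27, then 202, 189 to 553 and 5 to 10. With all libraries kept, the highest counts came with the block, except for EGFP+ against viable cells (49 with the block). Few transcripts per plate limit *Ly6a* and *Ly6g6e* in the follicle classes.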
